A study of Mus musculus with 12 samples.

Results

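The kinases and phosphatases that switch the pyruvate dehydrogenase (PDH) complex off and on were followed in TSEC, a murine cell line of liver sinusoidal endothelial origin that had been immortalized. The set held 7 genes chosen by role: the PDH kinases Pdk1, Pdk2, Pdk3 and Pdk4, the PDH phosphatases Pdp1 and Pdp2, and the mitochondrial carrier Ucp2. A transcript counted for a gene only if it was annotated to that symbol alone, and the transcript with the highest mean over the 12 arrays stood for the gene. This rule gave a value for 6 of the 7 genes, out of 13556 genes measured in the same way, and Ucp2 was not analysed here. Cells had been given oleic acid at 0.66 mM and palmitic acid at 0.33 mM together with 30 µM INT-767 (FFA+INT-767), the same fatty acids alone (FFA), 30 µM INT-767 alone (INT-767), or medium alone (Media), in each case for 8 h and with 3 arrays per group. These doses and this time are those of the sample labels, and the study's methods give a different oleic acid dose and a longer time. INT-767 is a synthetic bile acid derivative that activates the receptors FXR and TGR5. The arrays are biological replicates by their labels and triplicate wells of a single cell line by the study's methods. P-values below therefore rest on the spread between wells, part of which may be technical.

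The PDH complex turns pyruvate from glycolysis into acetyl-CoA inside mitochondria. The Pdk enzymes phosphorylate its E1 subunit and switch the complex off, which spares glucose carbon when fatty acids are burnt, and the Pdp enzymes remove the phosphate and switch it on again. Pdk4 is a well known target of the fatty acid sensing PPAR receptors and of FOXO factors and is induced by fasting in liver and muscle, whereas Pdk1 is a target of the hypoxia factor HIF-1. The array signal is a log2 value per transcript from total RNA of a well, in which less RNA per cell and fewer cells of a kind cannot be told apart.

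On all 12 arrays, each of the 6 genes lay above 4.5 on the log2 scale, the level below which the study treats a gene as absent. Differences were tested with limma over every transcript of a comparison, with Benjamini-Hochberg adjustment. In 9 such tests (every pair of groups but FFA with INT-767, each treatment over all 12 arrays with the other as a factor, their interaction and the differences among the 4 groups), 0 of 6 genes had an adjusted p under 0.05, and so had 0% of all transcripts tested. Between 536 and 1634 transcripts, 2.14% to 6.27% of those tested, had an unadjusted p under 0.05 in limma, and the methods' unmoderated test gave 616 to 1605 at that level and 0 after adjustment. Every difference below is therefore given as a measured value and not as a called change.

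Arrays with the same replicate number went together across the treatments, and on the arrays numbered 2 a pair of arrays went against their labels in genes that respond to fatty acids. Angptl4, a secreted lipase inhibitor and PPAR target, measured 8.23 on the array labelled FFA replicate 2, against 10.21 to 10.64 on the other 5 arrays with fatty acids. It measured 10.43 on the array labelled INT-767 replicate 2, against 7.76 to 8.91 on the other 5 arrays without fatty acids. Cpt1a, the mitochondrial carnitine palmitoyltransferase, measured 10.88 on the array labelled FFA replicate 2, against 11.60 to 11.85 on the other arrays with fatty acids, and 11.64 on the array labelled INT-767 replicate 2, against 10.83 to 11.10 on the other arrays without them. Of 9 genes higher by over 0.5 with fatty acids in every pair of numbers 1 and 3, Pdk4 among them, 5 were higher in FFA minus Media of number 2 (median 0.018) and all 9 in INT-767 minus Media (median 0.767). Of 36 genes lower by over 0.5 in the same pairs, 6 were lower in FFA minus Media of number 2 (median 0.127) and 33 in INT-767 minus Media (median -0.518). Genes chosen in the same way for INT-767 went with the labels in INT-767 minus Media of number 2, where 4 of 4 were higher and 25 of 30 lower, and so did Pdk3. The labels were kept as given, and the FFA and INT-767 differences of the 6 genes that are given over 12 arrays are also given without these arrays, on 10 arrays. Number 2 then holds only Media and FFA+INT-767, so that fatty acids and INT-767 cannot be told apart within that number. A marker counted as measured if a transcript annotated to it alone was in the table used here, which holds only transcripts above 4.5 on at least 1 array. Markers not measured may thus lie below that level or share a transcript with another symbol, which was not checked. Of 12 endothelial markers 5 were measured, of which 3 (Flt1, Esam and Egfl7) lay above 4.5 on every array, while of 8 sinusoidal markers only Mrc1 was measured, at 4.14 to 4.65. The markers measured here therefore do not show the sinusoidal identity of the line. Of 7 stellate cell and fibroblast markers 6 were measured, with a summed log2 level of 9.42 to 12.62 over the arrays. Of 7 hepatocyte markers 4 were measured, with a summed level of 6.54 to 8.02, of which Apoa1 lay at 5.12 to 7.64 and Alb and Ttr at 3.98 to 4.71. Of 6 macrophage markers 2 were measured, with a summed level of 6.48 to 6.82.

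Promoter sequence upstream of the start site is shown for Pdk4, the gene with the largest difference under fatty acids, and for Pdk2 and Pdp2, a kinase and a phosphatase whose values went together over the arrays. Each line gives the 250 bases before the annotated start in RefSeq (GRCm38.p6), 5′ to 3′ on the gene's strand, and capitals mark the E-box motif CACGTG.
Pdk4 (chr6:5496279-5496528, minus strand): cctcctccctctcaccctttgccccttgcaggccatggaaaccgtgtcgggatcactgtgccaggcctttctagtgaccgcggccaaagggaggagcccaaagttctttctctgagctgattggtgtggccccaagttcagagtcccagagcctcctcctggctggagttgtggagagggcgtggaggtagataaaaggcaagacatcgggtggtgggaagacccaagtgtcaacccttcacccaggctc
Pdk2 (chr11:95041372-95041621, minus strand): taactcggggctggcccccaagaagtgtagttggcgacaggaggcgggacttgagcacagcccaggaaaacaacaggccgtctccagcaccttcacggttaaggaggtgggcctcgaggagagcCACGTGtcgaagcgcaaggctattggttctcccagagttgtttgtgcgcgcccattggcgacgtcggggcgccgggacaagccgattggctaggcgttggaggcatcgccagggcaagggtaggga
Pdp2 (chr8:104591222-104591471, plus strand): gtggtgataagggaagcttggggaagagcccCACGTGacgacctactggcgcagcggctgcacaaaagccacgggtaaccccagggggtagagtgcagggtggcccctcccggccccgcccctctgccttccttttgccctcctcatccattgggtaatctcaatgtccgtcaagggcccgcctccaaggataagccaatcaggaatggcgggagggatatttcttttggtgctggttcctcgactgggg
RefSeq windows of 300 bases, from 250 before to 50 after a start, were found for 6 of the 7 genes, Ucp2 among them, with 8 windows in all. The E-box starts at base -126 in the Pdk2 window and at base -219 in the Pdp2 window, counted from the start site, and was found in no other window of the set. Of 32851 mouse windows, 7.15% hold this palindrome, which reads the same on both strands. The nuclear receptor core motif AGGTCA (in 16.26% of all windows), its direct repeat spaced by 1 base (0.04%) and the forkhead motif TGTTTAC (3.65%), searched on both strands, had no match in the 8 windows, Pdk4's included, which says only that these letters are not in these windows. The core motif is part of the direct repeat, so these counts overlap. The GC content was 60.7% in the Pdk4 and Pdp2 windows and 64.7% in this Pdk2 window, against a median of 52.7% over all windows.

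Pdk4 (chr6:5483351-5496278) had the widest spread of the 6 genes. Over the 12 arrays it ranged from 9.57 to 11.40, a range larger than that of 96.2% of all transcripts. In FFA+INT-767 its 3 arrays read 10.77, 10.49 and 11.33, in the order of their replicate numbers, and averaged 10.86 ± 0.43 (SD, n = 3). The FFA arrays read 10.92, 9.59 and 11.40 and averaged 10.64 ± 0.94. INT-767 arrays read 10.11, 10.33 and 10.04, with a mean of 10.16 ± 0.15, and Media arrays read 10.34, 9.57 and 10.60, with a mean of 10.17 ± 0.53. The 2 highest values of all belonged to the arrays numbered 3 that held fatty acids, and the 2 lowest to the arrays labelled FFA and Media of number 2. The order of the group means was FFA+INT-767, FFA, Media and INT-767, and each neighbour in it differed by less than the SD of at least 1 of its groups.

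**Figure D1:**
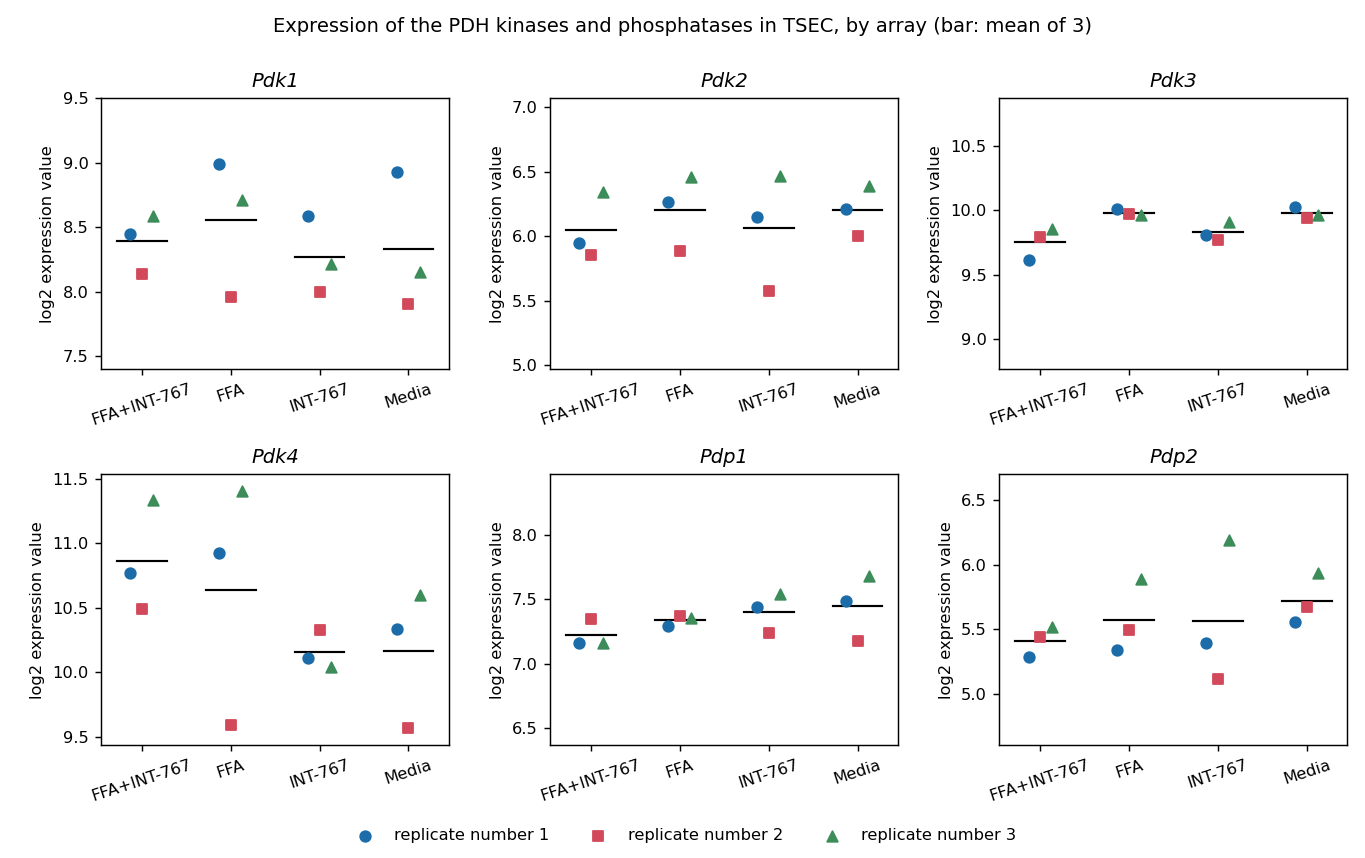
Log2 expression value (y axis, 2.1 units high in every panel) of the 6 measured genes on each array, by treatment (x axis), with symbol shape and colour for the replicate number and a bar for the mean of 3 arrays. Pdk4 spans 9.57 to 11.40 with the FFA and Media arrays of number 2 lowest, and Pdk3 is the gene with the least scatter, at 9.61 to 10.03.

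With fatty acids Pdk4 was on average higher, but no test called the difference. FFA exceeded Media by 0.47 on the log2 scale (SE 0.49, limma adjusted p = 1), with overlapping groups. This value rests on single arrays, since it was 0.99 without the array labelled FFA replicate 2 and 0.087 without FFA replicate 3. FFA+INT-767 exceeded INT-767 by 0.70 (SE 0.22, limma unadjusted p = 0.0169, adjusted p = 1), a ratio of 1.63, in a test in which 2.14% of all transcripts had an unadjusted p under 0.05. These were the only 2 groups in an FFA contrast that did not overlap for Pdk4, and 3.37% of all transcripts were likewise higher without overlap in that comparison, so 1 of 6 genes is to be read against that share. The difference was 0.47 without FFA+INT-767 replicate 3 and 0.79 without the array labelled INT-767 replicate 2. Against Media, FFA+INT-767 was higher by 0.70 (SE 0.32, limma adjusted p = 0.916), and by 0.40 without Media replicate 2.

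Averaged over both INT-767 conditions, the 6 arrays with fatty acids exceeded the 6 without by 0.59 (SE 0.29, limma unadjusted p = 0.0626, adjusted p = 1), which is 1.50-fold. Between arrays of the same replicate number the difference was positive in 6 of 6 pairs, a property that 1.88% of all transcripts shared. FFA minus Media was 0.58, 0.018 and 0.81 for numbers 1, 2 and 3, and FFA+INT-767 minus INT-767 was 0.66, 0.16 and 1.29. In both series the pair of number 2 gave the smallest difference. With the replicate number as a block in the model the unadjusted p was 0.0221 and the adjusted p 0.803, and 1613 transcripts (6.19%) then had an unadjusted p under 0.05 in place of 627 (2.4%). On the 10 arrays without the arrays labelled FFA replicate 2 and INT-767 replicate 2, Pdk4 was higher with fatty acids by 0.89 (SE 0.22, 1.85-fold). It ranked 63 of 25859 transcripts there, with a limma adjusted p of 1, or 0.088 with the block. In that fit 3 transcripts (0.0116%) passed, or 5 (0.0193%) with the block, and Pdk4 was not one of them. Omission of these arrays was decided after the values had been seen. Pdk4 was itself among the genes used to describe how these arrays lay against their labels. Its larger difference and its rank without them follow in part from that choice and are no separate support.

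For INT-767 the sign of the Pdk4 difference depended on the replicate number. INT-767 minus Media was -0.23, 0.76 and -0.55 for numbers 1, 2 and 3, and FFA+INT-767 minus FFA was -0.15, 0.90 and -0.067. Thus both pairs of number 2, each of which holds 1 of the arrays that went against their labels, were positive and the other 4 were negative. The mean differences were -0.0075 for INT-767 against Media (SE 0.27, adjusted p = 1), 0.23 for FFA+INT-767 against FFA (SE 0.47, adjusted p = 0.975) and 0.11 over all 12 arrays (SE 0.29, adjusted p = 0.97, all by limma). Without the array labelled FFA replicate 2, FFA+INT-767 minus FFA was -0.30, and over the 10 arrays the INT-767 difference was -0.19 (SE 0.22), so that both turned sign. The interaction, the FFA difference with INT-767 minus that without, was 0.23 (SE 0.59, limma adjusted p = 1) and on 10 arrays it was -0.21 (SE 0.47), or 0.28 (SE 0.25) with the replicate block, so that a different response of Pdk4 to fatty acids in the presence of INT-767 was not resolved in either direction.

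**Figure D2:**
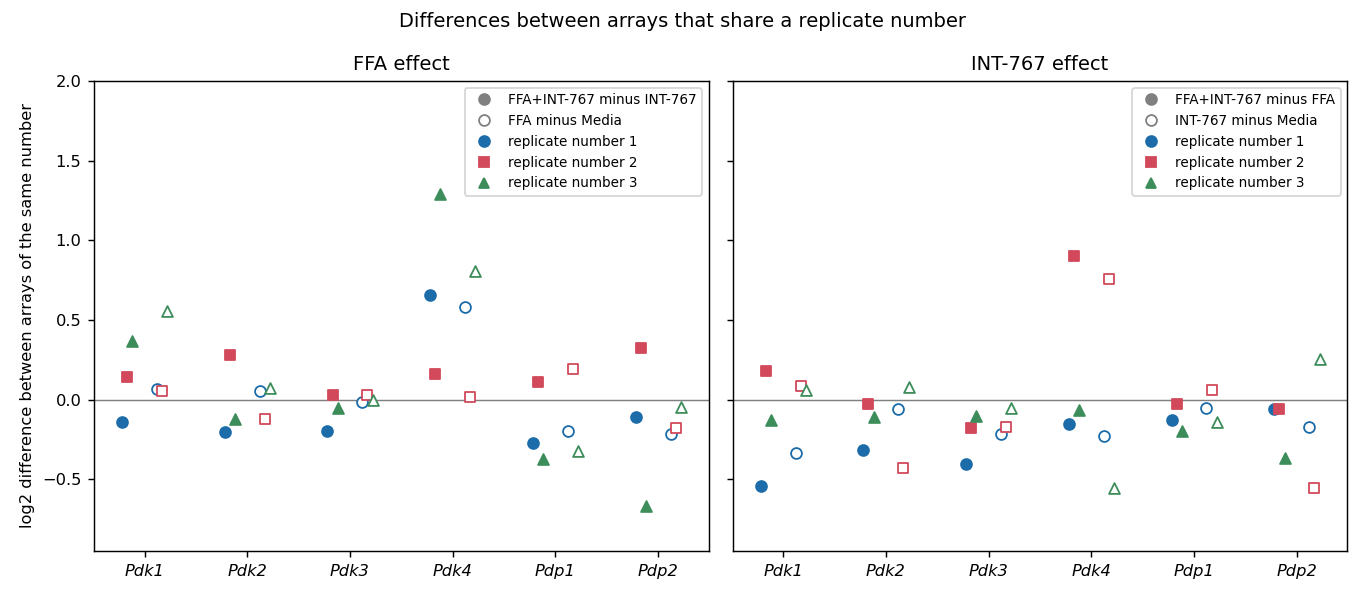
Log2 difference between arrays that share a replicate number (y axis) for each gene (x axis), with fatty acids against without (left) and with INT-767 against without (right); filled symbols are pairs with the other treatment present and open symbols pairs without it. All 6 FFA differences of Pdk4 lie above 0, at 0.018 to 1.29, and all 6 INT-767 differences of Pdk3 lie below 0, at -0.40 to -0.056.

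Pdk3 (chrX:93764616-93832150), the kinase with the highest catalytic activity toward PDH in biochemical assays of the human family, was the steadiest of the 6 genes, with a range over the arrays larger than that of only 18.9% of transcripts. FFA+INT-767 arrays read 9.61, 9.79 and 9.86 and averaged 9.75 ± 0.13. The FFA arrays read 10.01, 9.97 and 9.96 and averaged 9.98 ± 0.028. INT-767 arrays read 9.81, 9.77 and 9.91, averaging 9.83 ± 0.074, and Media arrays read 10.03, 9.94 and 9.97, averaging 9.98 ± 0.045. Every array with INT-767 was lower than every array without it, but by a narrow gap, from 9.91 (INT-767 replicate 3) to 9.94 (Media replicate 2). The share of all transcripts that separate in this way was not counted, so nothing is read from this separation. Over all 12 arrays INT-767 was lower by 0.19 (log2 difference -0.19, SE 0.063, limma unadjusted p = 0.012, adjusted p = 0.777), a ratio of 0.878, and in that test 6.27% of all transcripts had an unadjusted p under 0.05. The difference was negative in 6 of 6 same-number pairs, as for 5.93% of all transcripts. It kept its sign and size on 10 arrays (-0.18, SE 0.078, adjusted p = 0.996) and with each single array left out (-0.21 to -0.15), and with the replicate block the adjusted p was 0.23.

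In the pairwise tests Pdk3 was the 1 gene of 6 that was lower without overlap in INT-767 against Media, by a log2 difference of -0.15 (SE 0.11, limma adjusted p = 1), where 4.05% of all transcripts were. It was also the only one of the 6 in FFA+INT-767 against FFA, at -0.23 (SE 0.11, adjusted p = 0.958), where 4.6% of all transcripts were. In FFA+INT-767 against Media, Pdk3 at -0.22 (SE 0.12, adjusted p = 0.947) and Pdp2 were lower without overlap, 2 of 6 genes against 4.76% of all transcripts. These comparisons share arrays and are not independent of one another. Without the arrays that went against their labels, INT-767 against Media was -0.12 and FFA+INT-767 against FFA was -0.23. Fatty acids alone left Pdk3 within the spread of Media, with a difference of 0.0052 (SE 0.10, limma adjusted p = 1). The median of all genes for INT-767 over 12 arrays was -0.026, and a median over genes does not measure how far single genes vary.

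Pdk1 (chr2:71873215-71903858) was measured by 2 transcripts of its own. For the one of higher signal, FFA+INT-767 arrays read 8.45, 8.14 and 8.59, FFA arrays 8.99, 7.96 and 8.71, INT-767 arrays 8.59, 8.00 and 8.22, and Media arrays 8.93, 7.91 and 8.16. The groups overlapped in every comparison, and in each group the array of number 2 was the lowest. With fatty acids Pdk1 was higher by 0.17 over the 12 arrays (SE 0.21, limma adjusted p = 1) and in 5 of 6 same-number pairs. The value was 0.25 on 10 arrays (SE 0.21), 0.070 without FFA replicate 1 and 0.30 without Media replicate 1. Its second transcript was higher by 0.29 (SE 0.14, unadjusted p = 0.0638, adjusted p = 1), in 6 of 6 pairs (0.026 to 0.72), and by 0.37 on 10 arrays (SE 0.15, adjusted p = 1). For INT-767 the first transcript differed by -0.11 (SE 0.21, limma adjusted p = 0.954), with 3 pairs higher and 3 lower, and by -0.19 on 10 arrays (SE 0.21), -0.24 without the array labelled FFA replicate 2 and 0.014 without Media replicate 1.

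Pdk2 (chr11:95026258-95041371), a kinase expressed in most tissues, showed almost no difference with fatty acids, -0.0071 over 12 arrays (SE 0.16, limma adjusted p = 1), with 3 same-number pairs higher and 3 lower. FFA+INT-767 arrays read 5.95, 5.85 and 6.34, FFA arrays 6.26, 5.88 and 6.46, INT-767 arrays 6.15, 5.57 and 6.46, and Media arrays 6.21, 6.004 and 6.39. Here too the array of number 2 was the lowest in each group, and the array of number 3 the highest. INT-767 gave a log2 difference of -0.15 (SE 0.16, limma adjusted p = 0.914), negative in 5 of 6 pairs, which was -0.037 without the array labelled INT-767 replicate 2 and -0.24 without INT-767 replicate 3. On 10 arrays the difference was -0.050 with fatty acids (SE 0.14) and -0.10 with INT-767 (SE 0.14).

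Both phosphatases had a negative difference with either treatment over 12 arrays, and neither passed a test. Pdp1 (chr4:11958183-11966450), the calcium sensitive catalytic subunit, averaged 7.22 ± 0.11 in FFA+INT-767, 7.34 ± 0.041 in FFA, 7.40 ± 0.15 in INT-767 and 7.45 ± 0.25 in Media (SD, n = 3 each). It differed by -0.14 with fatty acids over 12 arrays (SE 0.091, limma adjusted p = 1) and by -0.081 with INT-767 (SE 0.091, adjusted p = 0.917). The pairs of numbers 1 and 3 were all lower with fatty acids, at -0.38 to -0.19, and those of number 2 were higher, at 0.19 without INT-767 and 0.11 with it. Pdp2 (chr8:104591472-104599026), the second catalytic subunit, read 5.28, 5.44 and 5.52 in FFA+INT-767, 5.34, 5.50 and 5.89 in FFA, 5.39, 5.12 and 6.19 in INT-767, and 5.56, 5.67 and 5.94 in Media. Its 3 FFA+INT-767 values lay below all Media values, a difference of -0.31 (SE 0.14, limma unadjusted p = 0.0673, adjusted p = 0.919), while the other groups overlapped. Over 12 arrays it differed by -0.15 with fatty acids (SE 0.17, adjusted p = 1) and by -0.16 with INT-767 (SE 0.17, adjusted p = 0.912). On 10 arrays the FFA difference was -0.19 for Pdp1 (SE 0.10) and -0.24 for Pdp2 (SE 0.17), both with a limma adjusted p of 1, and the INT-767 difference was -0.031 for Pdp1 (SE 0.10) and -0.067 for Pdp2 (SE 0.17), both with an adjusted p of 0.996. With 1 array left out, the FFA difference of Pdp2 ranged from -0.25 without the array labelled INT-767 replicate 2 to -0.011 without INT-767 replicate 3, and its INT-767 difference from -0.30 without INT-767 replicate 3 to -0.060 without the array labelled INT-767 replicate 2. The INT-767 difference of Pdp1 ranged from -0.14 without Media replicate 2 to -0.034 without Media replicate 3.

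Differences among the replicate numbers passed a test for 2 of the genes, which no treatment difference did. In a limma F test over the 3 numbers with the treatments as a factor, which was added after the values had been seen, Pdk2 (adjusted p = 0.00986) and Pdk1 (adjusted p = 0.0215) passed, against 20.4% of all transcripts. Mean Pdk2 was 6.14, 5.83 and 6.41 for numbers 1, 2 and 3, and mean Pdk1 was 8.74, 8.00 and 8.42. Number 2 was the lowest for both. The second transcript of Pdk1 did not pass (adjusted p = 0.0801), with means of 5.90, 5.49 and 5.84. Pdp2 had an adjusted p of 0.0559 and means of 5.40, 5.43 and 5.88, and Pdk4 had an adjusted p of 0.115 and means of 10.53, 9.99 and 10.84. Pdp1 and Pdk3 had adjusted p-values of 0.573 and 0.779. The summed level of the stellate cell and fibroblast markers moved with the same number, at 11.28 to 12.62, 9.42 to 10.45 and 10.19 to 10.68 for numbers 1, 2 and 3, and that of the hepatocyte markers was highest for number 3, at 6.603 to 7.13, 6.54 to 6.67 and 7.21 to 8.02. Mrc1 was highest for number 2, at 4.14 to 4.26, 4.44 to 4.65 and 4.17 to 4.32. The part of these markers in the differences among numbers was not tested. What the numbers stand for (a day, a passage or a plate) is not given in the sources used here.

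**Figure D3:**
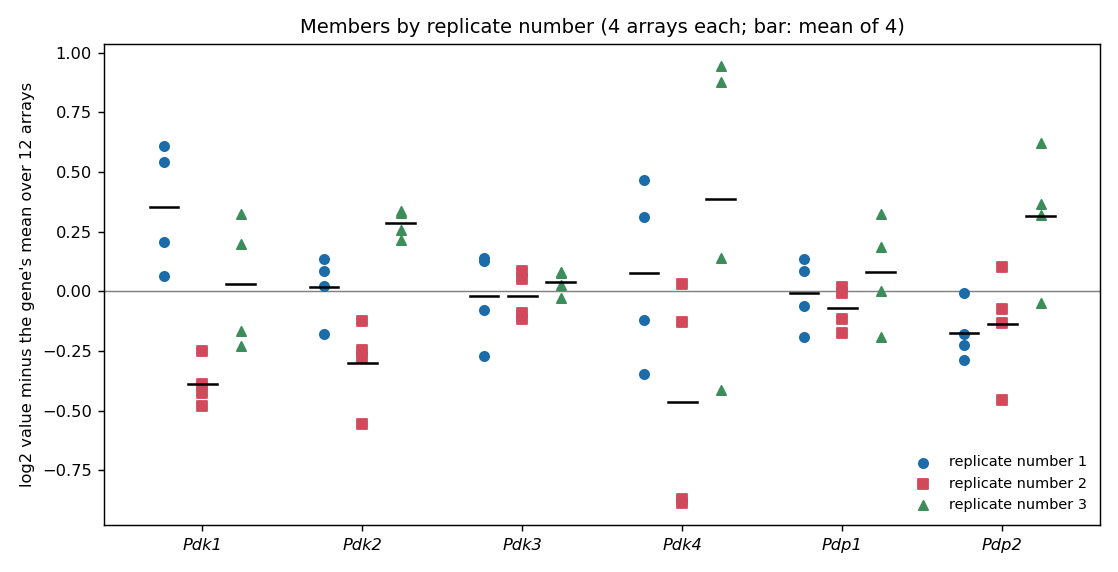
Log2 value minus the mean of the gene over 12 arrays (y axis) for the 6 genes (x axis), split by replicate number (symbols, 4 arrays each, with a bar for their mean). The 4 arrays of number 2 are all below 0 for Pdk1 and Pdk2, and those of number 3 are all above 0 for Pdk2.

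Values of the genes were also compared with one another over the 12 arrays. As a description, over arrays that share replicate numbers and treatments, the highest Pearson correlation within the set was that of Pdk2 with Pdp2 (r = 0.754), followed by Pdk1 with Pdk4 (r = 0.621) and Pdp1 with Pdp2 (r = 0.61). Pdk3 and Pdk4 were nearly unrelated (r = -0.094). Outside the set, the genes most like Pdk4 among 13550 were Trak1, a mitochondrial transport adaptor (r = 0.938), Hadh, an enzyme of mitochondrial β-oxidation (r = 0.936), Ero1a, an endoplasmic reticulum oxidase (r = 0.932), Gbe1, the glycogen branching enzyme (r = 0.921), and Entpd5, an endoplasmic reticulum nucleotidase (r = 0.919). After the mean of each replicate number was subtracted, their correlations with Pdk4 were 0.893 to 0.932. With fatty acids over 12 arrays these 5 genes were higher by 0.13 (Trak1), 0.15 (Hadh), 0.17 (Ero1a), 0.26 (Gbe1) and 0.32 (Entpd5), none with an adjusted p under 0.05 in limma. On 10 arrays they were higher by 0.21 (Trak1), 0.21 (Hadh), 0.28 (Ero1a), 0.40 (Gbe1) and 0.46 (Entpd5), again with none called. These 5 genes were picked for their correlation with Pdk4 over the same 12 arrays. That they differ in the direction of Pdk4, on 12 or on 10 arrays, follows in part from that choice and is no separate support.

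Genes around the PDH complex were read in 8 lists by the same fits, and in no list did a gene have a limma adjusted p under 0.05 for either treatment. For fatty acids over 12 arrays, where the median of all genes was -0.0004, the list of carnitine entry and malonyl-CoA genes had the largest median of the 8 lists, 0.24, with 6 of 8 genes higher (0.31 on 10 arrays). Of these, 4 were higher and 1 lower at an unadjusted p under 0.05, a level reached by 2.4% of all transcripts. Cpt1a was higher by 0.52 (SE 0.16), Cpt2, the inner membrane partner of Cpt1a, by 0.29 (SE 0.094), the carnitine importer Slc22a5 by 0.37 (SE 0.13) and malonyl-CoA decarboxylase Mlycd by 0.21 (SE 0.071). Acaca, the acetyl-CoA carboxylase that makes malonyl-CoA, was lower by 0.31 (log2 difference -0.31, SE 0.12). All 5 had an adjusted p of 1, and Slc22a5, Mlycd and Acaca are named because they make up this count, after their values were seen. On 10 arrays Cpt1a was higher by 0.77 (SE 0.092, limma adjusted p = 0.0593) and Acaca was lower (log2 difference -0.45, SE 0.11, adjusted p = 0.932). Cpt1a is one of the genes in which the omitted arrays were seen to go against their labels. Its larger difference and smaller SE without them follow in part from that choice and are no separate support.

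The complex that the Pdk enzymes act on differed little with fatty acids. Of 5 measured subunits 4 were higher, with a median of 0.082, led by Dlat, the E2 subunit (0.15, SE 0.079), and Pdhb, the E1 beta subunit (0.10, SE 0.074). For pyruvate transport and use, 5 of 10 genes were higher and the median was -0.0089. Mpc1, a subunit of the mitochondrial pyruvate carrier, differed by 0.10 (SE 0.10), and Pck2, mitochondrial phosphoenolpyruvate carboxykinase, by -0.28 (SE 0.11, unadjusted p = 0.0319). Pck2 was the only gene of that list with an unadjusted p under 0.05. Among the related kinase and phosphatase genes 2 of 6 were higher, with Pdpr, the regulatory subunit of the PDH phosphatase, at 0.29 (SE 0.17) and Dbt, the E2 subunit of the branched chain complex, at -0.13 (SE 0.097). Of 7 anion carriers 5 were higher (median 0.048), with the dicarboxylate carrier Slc25a10 at 0.19 (SE 0.069, unadjusted p = 0.0177) and the ADP/ATP carrier Slc25a4 at 0.064 (SE 0.069).

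Regulators of Pdk genes were mixed, 10 of 16 higher with fatty acids and a median of 0.016. Lpin1, a phosphatidate phosphatase and coactivator of PPARα, differed by -0.57 (SE 0.31) and Prkaa2, a catalytic subunit of AMPK, by 0.29 (SE 0.19). Without the replicate block, none of the 16 had an unadjusted p under 0.05. With the block, Lpin1 and Prkaa2 were under that level, as were 6.19% of all transcripts. So were Pck2, Pdpr, Slc25a10, Egln1, Bnip3, Cpt1a, Cpt2, Slc22a5, Mlycd and Acaca of other lists. No adjusted p of the 16 regulators or of these genes was under 0.05 with the block. Lpin1 averaged 7.22 ± 0.35 in FFA+INT-767, 7.49 ± 0.11 in FFA, 7.89 ± 0.82 in INT-767 and 7.97 ± 0.90 in Media. Of 12 hypoxia response genes, listed because Pdk1 is one of their kind, 11 were higher with a median of 0.087, among them Car9, carbonic anhydrase IX (0.21, SE 0.16), and the prolyl hydroxylase Egln1 (0.23, SE 0.20). The median of this list was -0.032 without FFA replicate 1 and 0.29 without Media replicate 1, so its sign rests on single arrays, and it was 0.17 on 10 arrays. For glycolysis, 9 of 12 genes were higher and the median was 0.025, with Pgam1 (0.11, SE 0.084) and Hk1 (0.08, SE 0.083) of the smallest p.

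**Figure D4:**
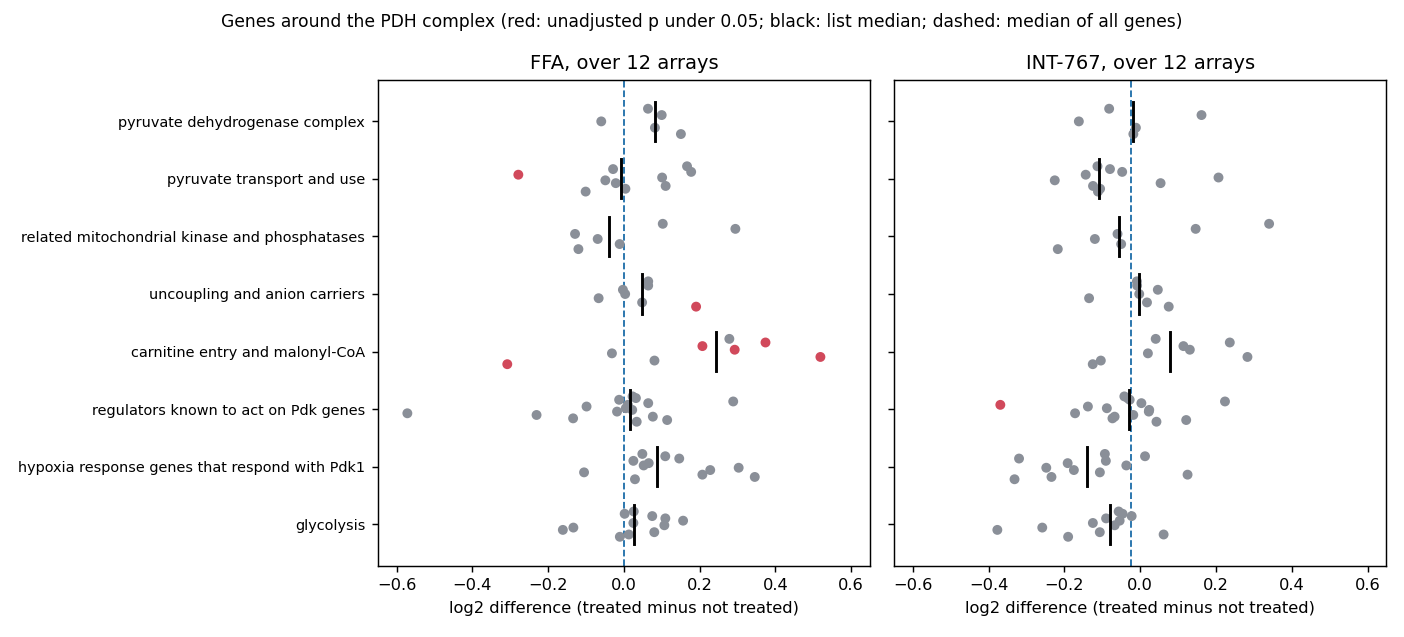
Log2 difference (x axis) of each measured gene in 8 lists (rows) with fatty acids against without (left) and with INT-767 against without (right), over 12 arrays; black bars mark list medians, the dashed line the median of all genes, and red points an unadjusted p under 0.05. The carnitine list has the largest median with fatty acids, 0.24, and the hypoxia and glycolysis lists lie mostly below 0 with INT-767, with medians of -0.14 and -0.079.

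With INT-767 over 12 arrays, where the median of all genes was -0.026 and 8098 of 13556 genes were lower, the counts of lower genes in the lists are to be read against that share. In the hypoxia list 10 of 12 genes were lower (median -0.14), among them P4ha2, a collagen prolyl hydroxylase (-0.32, SE 0.32), and Egln1 (-0.18, SE 0.20), and the median was 0.043 without Media replicate 1 and -0.21 on 10 arrays. In the glycolysis list 11 of 12 were lower (median -0.079), with the hexokinases Hk2 at -0.38 (SE 0.27) and Hk1 at -0.11 (SE 0.083). Neither list held a gene with an unadjusted p under 0.05 in this fit, which had no replicate block. With the replicate number as a block, Hk2 and Pfkfb3 of the glycolysis list were under that level. So were Pdhb, Mpc1, Me2, Ppm1k, Bckdha, Prkaa2 and Ppargc1a of other lists. None of these had an adjusted p under 0.05, and 13.5% of all transcripts then had an unadjusted p under 0.05. Without the block 6.27% of all transcripts were at that level, and Ppargc1a, the coactivator PGC-1α, was the only gene of the 8 lists there. It had a difference of -0.37 (SE 0.16, limma unadjusted p = 0.0393). Ppargc1a averaged 9.16 ± 0.29 in FFA+INT-767, 9.39 ± 0.15 in FFA, 9.01 ± 0.11 in INT-767 and 9.52 ± 0.51 in Media. For the regulators as a whole 10 of 16 were lower (median -0.031), Pparg at -0.14 (SE 0.11) being the gene of next smallest p without the block.

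In the PDH complex 4 of 5 subunits were lower with INT-767 (median -0.018), but Pdhb was higher by 0.16 (SE 0.074, unadjusted p = 0.0509) and the E1 alpha subunit Pdha1 differed by -0.16 (SE 0.11). Of the pyruvate genes 8 of 10 were lower (median -0.11), with Mpc1 at 0.21 (SE 0.10) and the malic enzyme Me2 at -0.23 (SE 0.12). Ppm1k, the branched chain complex phosphatase, differed by 0.34 (SE 0.22) and Bckdha, an E1 subunit of that complex, by -0.22 (SE 0.14), with 4 of 6 genes of their list lower. Anion carriers had a median of -0.0027, with Slc25a14 at -0.14 (SE 0.11) and Slc25a10 at 0.075 (SE 0.069). In the carnitine list 6 of 8 genes were higher (median 0.077), with Cpt1a at 0.28 (SE 0.16) and Slc22a5 at 0.24 (SE 0.13). On 10 arrays the INT-767 difference of Cpt1a was 0.036 (SE 0.092) and that of Slc22a5 0.11 (SE 0.13). For Cpt1a, whose own values helped to single out the omitted arrays, the smaller difference follows in part from that choice.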

How the data were processed

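RNA of TSEC was hybridised to 12 Mouse Gene 2.0 ST arrays, 3 per treatment. The authors made the deposited log2 values from probe intensities in Partek 6.6, normalized by GC-RMA in the study's methods and by RMA in the submitters' processing notes. Every transcript of the table exceeds 4.5 on at least 1 array. Array medians were 5.76 to 5.87, and the number of arrays limits the precision. Groups follow the sample labels. Of 26076 transcripts, 14317 carry 1 gene symbol, 1397 several and 10362 none.

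The values were used as deposited in R 4.3.3 with limma 3.58.1, without a block since the methods name none, on transcripts above 4.5 on at least 1 array of the fit, at a Benjamini-Hochberg adjusted p under 0.05. The script was tested on simulated data. Members, lists and tests were chosen with earlier results of these data known. Named genes are the members, the 2 genes of smallest unadjusted p per list and treatment, and the 5 genes best correlated with Pdk4. The same could not be done for Ucp2. Deviations from the group means correlated at 0.197 to 0.535 in all 18 pairs of arrays with the same replicate number and at -0.453 to 0.046 in 36 other pairs, so the numbers were taken to pair the arrays and a replicate block was tried.

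Other settings tried were array weights, the mean of the transcripts of a gene, a single fit of all arrays, the methods' unmoderated test, a robust prior with an intensity trend, quantile normalization or equal array medians on top of the deposited normalization, omission of each array in turn, and a filter on low values that was dropped or asked for 3 arrays. Fits without the arrays labelled FFA replicate 2 and INT-767 replicate 2, fits without the 4 arrays of 1 replicate number, and the test over replicate numbers were added after the data were seen.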

Additional observations from a re-analysis of the deposited data

How the results depend on the processing

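None of 54 differences of the 6 genes had a limma adjusted p under 0.05 as reported or in any of 1089 alternatives (smallest 0.088, for Pdk4 with fatty acids on 10 arrays with the replicate block), and 78 of these turned the sign, in 23 differences of at most 0.23. The replicate block changed no call of these genes or, with no array left out, of any comparison. With it FFA against Media had 1463 transcripts at an unadjusted p under 0.05 in place of 666. With only 3 arrays per group, differences as small as most of these were not resolved, and the cause of each turned sign was not tested. Transcripts called over all genes were 0 in each comparison but 1 for INT-767 over 12 arrays with array weights, and 3 and, with the block, 5 for fatty acids on 10 arrays. With 1 array left out the calls were 0 to 1 for INT-767 over 12 arrays (1 without FFA+INT-767 replicate 1) and 0 to 1 for the interaction and for differences among the 4 groups (1 without Media replicate 3), and 0 in the other comparisons. After arrays were shifted to the same median, Pdk3 in FFA against Media was -0.0019 and Pdk4 in INT-767 against Media 0.029. Quantile normalization gave -0.0057 for Pdk3 in FFA against Media and 0.0040 for Pdp1 in INT-767 against Media. Array weights gave 0.014 for Pdk2 and -0.00081 for Pdk3 in FFA against Media, 0.024 for Pdk4 in INT-767 against Media and 0.013 for the Pdk1 interaction. With the replicate block and without number 1, the FFA difference was 0.027 for Pdk2 and 0.0000825 for Pdk3, the INT-767 difference of Pdk1 was 0.051 and the Pdk2 interaction 0.11. Without number 2 the INT-767 difference of Pdk4 was -0.25, and without number 3 the FFA difference of Pdk2 was 0.0015 and the interactions of Pdk2 and Pdp2 were 0.075 and 0.30. On 10 arrays Pdk4 had an INT-767 difference of -0.19, with and without the block, and an interaction of -0.21 without the block and 0.28 with it.

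With 1 array left out in turn, signs turned in the following ranges. For Pdk1 they were -0.46 to 0.056 in FFA+INT-767 against FFA, -0.013 to 0.28 in FFA+INT-767 against INT-767, -0.15 to 0.36 in FFA+INT-767 against Media, -0.27 to 0.24 in INT-767 against Media, -0.24 to 0.014 for INT-767 over 12 arrays and -0.40 to 0.12 for the interaction. For Pdk2 they were -0.13 to 0.16 in FFA against Media, -0.12 to 0.083 for FFA over 12 arrays, -0.26 to 0.19 in FFA+INT-767 against INT-767, -0.34 to 0.11 in INT-767 against Media and -0.26 to 0.19 for the interaction. Pdk3 had -0.014 to 0.030 in FFA against Media and -0.053 to 0.0013 for FFA over 12 arrays. Pdk4 had -0.30 to 0.61 in FFA+INT-767 against FFA, -0.31 to 0.21 in INT-767 against Media, -0.14 to 0.27 for INT-767 over 12 arrays and -0.29 to 0.62 for the interaction, while its FFA differences stayed positive. Pdp1 had -0.24 to 0.0069 in FFA against Media, -0.18 to 0.070 in INT-767 against Media and -0.19 to 0.061 for the interaction, and Pdp2 -0.38 to 0.16 in FFA+INT-767 against INT-767, -0.47 to 0.068 in INT-767 against Media and -0.23 to 0.31 for the interaction.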
